A study of Mus musculus with 13 samples.

Results

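MHC class II molecules carry peptides from engulfed proteins to the surface of antigen-presenting cells, and microglia, the resident macrophages of the brain, make little of them until they are activated. The genes described here are Cd74 (the invariant chain), H2-Aa and H2-Ab1 (the alpha and beta chains of I-A), H2-Eb1 (the beta chain of I-E), H2-DMa and H2-DMb1 (the chains of the peptide-loading chaperone DM) and Ciita (the coactivator that switches the class II genes on). They were chosen by symbol as genes of this pathway, and all 7 of the 7 listed are among the 19737 genes of the deposited table. Of these, 6 reached a mean of 1 FPKM (fragments counted for each kilobase of a gene, scaled to the library's total) over the 13 libraries and were tested with the 10817 genes that did so. Ciita lay below that level and is described by its values. In 5xFAD microglia, Cd74, H2-Aa, H2-Ab1 and H2-Eb1 were higher in every library than in any wild type library. None of the tested genes passed the test between 5xFAD EGFP libraries and those with the circular RNA or with knockout of PKR. The H2 genes lie on chromosome 17 (GRCm38, GENCODE M21), in the order H2-DMa (34119541 to 34139101), H2-DMb1 (34153072 to 34160230), H2-Ab1 (34257689 to 34269419), H2-Aa (34282744 to 34287823) and H2-Eb1 (34305867 to 34316674), with H2-Aa alone on the minus strand, whereas Ciita lies on chromosome 16 and Cd74 on chromosome 18.

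The 13 libraries were made from mouse microglia by stranded sequencing of total RNA after depletion of ribosomal RNA. AAV PHP.eB-EGFP, an adeno-associated virus carrying green fluorescent protein, had been given to the wild type mice (n = 3) and to 1 group of 5xFAD mice (n = 2). Further 5xFAD mice (n = 4) had received AAV PHP.eB carrying circPOLR2A, a circular RNA, and the remaining group was 5xFAD with PKR knockout (n = 4), for which the labels name no vector. The comparisons ask how 5xFAD microglia differ from wild type, and whether the circular RNA or the loss of PKR, the kinase activated by double-stranded RNA, changes them. 5xFAD mice carry human transgenes with familial Alzheimer's disease mutations, driven by the neuronal Thy1 promoter. All 3 of the groups other than wild type carry 5xFAD. The circRNA libraries carry different treatment labels, circPOLR2A (9,10), (9,11), (9,12) and (9,13) for replicates 1 to 4, whereas the series names (9,10) for all of them. They were grouped by title, and whether they received 1 construct is not settled. Age, strain, sex and the way the microglia were isolated are not given in the sources used here. No label says that the libraries of a group came from separate mice, so p-values measure the spread between these libraries. Only the PKR knockout libraries carry a library name in their labels, so a batch of library making and the knockout cannot be told apart.

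The pathway runs in a fixed order. I-A and I-E dimers assemble in the endoplasmic reticulum with the invariant chain, which blocks their groove and directs them to endosomes, where cathepsins, with cathepsin S foremost, trim it to a short fragment. DM then exchanges this fragment for peptide, and DO, encoded by H2-Oa and H2-Ob, restrains DM. Transcription of the class II genes and of Cd74 depends on an enhanceosome of the RFX complex, CREB and NF-Y, bound to the X and Y boxes of each promoter, to which the coactivator made from Ciita is recruited. Interferon gamma is the best known inducer of Ciita, with IRF1 among the factors that act in between.

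The promoters of an I-A and an I-E chain are shown because the results below turn on how these genes moved together and by unequal amounts. RefSeq promoter windows (GRCm38.p6, 250 bases before to 50 bases after the start) were at hand for 4 of the 7 genes. The cores searched were CCAAT (Y box), CCTNGNNAC (X1 box) and TGACG (X2 box), on both strands. Capitals mark these cores. The H2-Aa stretch holds TGACG and, overlapping it, its reverse complement, within an X2-type palindrome, followed by the Y box core as ATTGG. The H2-Eb1 stretch holds the Y box core in both orientations.
H2-Aa, chr17:34287824-34287943, minus strand: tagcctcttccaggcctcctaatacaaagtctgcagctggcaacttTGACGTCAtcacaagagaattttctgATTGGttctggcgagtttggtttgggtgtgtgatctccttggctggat
H2-Eb1, chr17:34305747-34305866, plus strand: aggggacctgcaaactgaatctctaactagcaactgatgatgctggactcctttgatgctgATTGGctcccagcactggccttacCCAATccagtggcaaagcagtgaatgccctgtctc

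Both stretches end at the base before the annotated start. In H2-Aa the Y box core lay at -48 to -44 and the X2 box core at -74 to -70, counted from the start. In H2-Eb1 the Y box cores lay at -59 to -55 and at -35 to -31, and neither X core was found by these letters in the window. The H2-DMb1 window held an X1 box core, CCTAGTAAC, at -98 to -90 and a Y box core at -61 to -57. H2-DMa has 2 windows, of which 1 held a Y box core at -198 to -194 and the other none of the cores. Over all 32851 windows of 300 bases, 37.4% held the Y box core, 15.8% the X1 core and 20.8% the X2 core, so a match is a description of the letters and not a site of binding.

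Depth recovered from the steps of the low FPKM values was 45.19 to 69.99 M (mega) fragments per library. The PKR knockout libraries were deeper, at 57.71 to 69.99 M, than all others, at 45.19 to 54.9 M. Cd74 was covered by 4386 to 67643 fragments in each library and Ciita by 129 to 925. Eif2ak2, which encodes PKR, stood at 3.35, 4.61, 3.31 and 4.16 FPKM in the PKR knockout libraries and at 6.49 and 6.59 FPKM in the 5xFAD EGFP libraries. The transcript was thus lower but not at 0, with a log2 change of -0.64 ± 0.11 (SE; limma, Benjamini-Hochberg adjusted p = 0.0644) that missed the threshold of 0.05. With circRNA it was higher than with PKR knockout by 0.85 (limma, adjusted p = 0.0015). Against wild type its change with PKR knockout was -0.27 (limma, adjusted p = 0.0486), a call kept in 4 of 10 alternative fits. In PKR knockout replicate 2 the Y-linked gene Ddx3y was at 0.0055 FPKM, against 6.64 to 9.06 FPKM in the other 12 libraries. Wild type replicate 3 also stood apart, with the myelin gene Mbp at 925.9 FPKM against 195.2 to 219.8 FPKM in the other wild type libraries. Microglial markers (8 genes, among them P2ry12 and Tmem119) summed to 2597 FPKM in that library and to 3004 to 4487 FPKM in the other 12. Class II calls that change without either library are given both ways.

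Cd74 was the most abundant of the 7 genes in every library and had the largest change of the 6 tested in 5xFAD EGFP against wild type. It stood at 60.1, 63.0 and 51.8 FPKM in wild type replicates 1 to 3 and at 294.7 and 244.1 FPKM in the 5xFAD EGFP libraries. With circRNA it stood at 238.8, 454.4, 290.1 and 460.3 FPKM, and with PKR knockout at 435.2, 286.4, 587.3 and 329.5 FPKM. The lowest of the 10 5xFAD libraries was thus far above the highest wild type library. Group means were 58.3 ± 5.84 FPKM (SD, n = 3) in wild type and 269.4 ± 35.8 FPKM (SD, n = 2) in 5xFAD EGFP, a fold of 4.62. The log2 change on the scale of log2(FPKM + 1) was 2.19 ± 0.32 (SE; limma, adjusted p = 0.00092). Against the same wild type libraries it was 2.56 ± 0.27 with circRNA (limma, adjusted p = 2.9e-05) and 2.74 ± 0.27 with PKR knockout (limma, adjusted p = 1.2e-05). It passed in all 10 alternative fits and in all 13 fits that left out 1 library, in each of these 3 comparisons.

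The 2 chains of I-A followed each other closely. H2-Aa stood at 9.43, 9.74 and 7.34 FPKM in wild type and at 33.4 and 27.5 FPKM in 5xFAD EGFP. It stood at 26.3, 56.4, 27.7 and 52.9 FPKM with circRNA and at 40.9, 26.9, 64.0 and 32.4 FPKM with PKR knockout. No 5xFAD library reached down to the wild type range. The group means of 8.84 ± 1.31 FPKM (SD, n = 3) and 30.4 ± 4.19 FPKM (SD, n = 2) gave a fold of 3.44 for 5xFAD EGFP over wild type, and the difference in log2(FPKM + 1) was 1.68 ± 0.37 (SE; limma, adjusted p = 0.010).

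H2-Ab1 stood at 12.5, 13.3 and 10.2 FPKM in wild type and at 38.1 and 32.6 FPKM in 5xFAD EGFP. With circRNA it stood at 36.0, 64.6, 40.4 and 69.0 FPKM, and with PKR knockout at 50.1, 35.9, 77.7 and 41.0 FPKM. Here too the groups did not overlap. The log2 change in 5xFAD EGFP against wild type was 1.49 ± 0.32 (SE; limma, adjusted p = 0.0090). Mean levels were 12.0 ± 1.59 FPKM (SD, n = 3) in wild type and 35.4 ± 3.89 FPKM (SD, n = 2) in 5xFAD EGFP. The calls of H2-Aa and H2-Ab1 in this comparison need both 5xFAD EGFP libraries. With 1 of them left out, the lone library is assumed to vary like the other groups. Without replicate 1 the adjusted p in limma was 0.088 for H2-Aa and 0.080 for H2-Ab1, and without replicate 2 it was 0.056 and 0.052, with log2 changes of 1.38 to 1.82.

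H2-Eb1 showed a smaller difference. It stood at 16.5, 16.6 and 13.7 FPKM in wild type, at 34.7 and 27.9 FPKM in 5xFAD EGFP, at 29.4, 62.7, 35.1 and 62.4 FPKM with circRNA and at 46.3, 28.3, 71.9 and 32.9 FPKM with PKR knockout. All 10 5xFAD libraries were above the 3 wild type libraries. The fold of 2.00 in 5xFAD EGFP (31.3 ± 4.82 FPKM, SD, n = 2) over wild type (15.6 ± 1.65 FPKM, SD, n = 3) did not pass the test, at 0.95 ± 0.38 on the log2 scale (SE; limma, adjusted p = 0.12). Fitted on these groups alone, the adjusted p was 0.031. Against wild type, H2-Eb1 rose by 1.47 ± 0.32 with circRNA (SE; limma, adjusted p = 0.0049) and by 1.38 ± 0.32 with PKR knockout (limma, adjusted p = 0.0054). H2-Ea, whose product pairs with the I-E beta chain, was not analysed here.

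**Figure D1:**
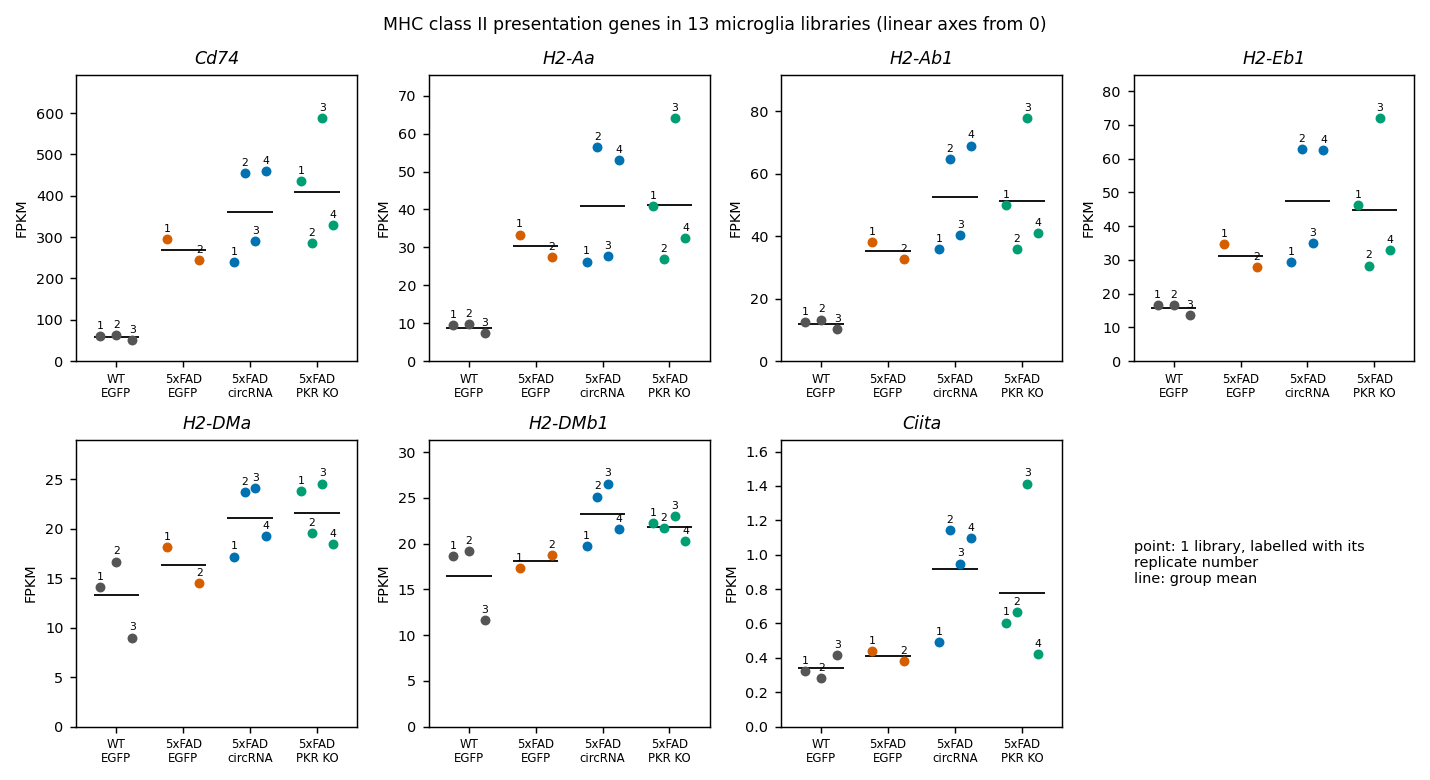
FPKM (linear axes from 0) of the 7 genes in each library, 1 point per library labelled with its replicate number and a line at each group's mean. For Cd74, H2-Aa, H2-Ab1 and H2-Eb1 the 10 5xFAD points lie above the 3 wild type points, whereas H2-DMa, H2-DMb1 and Ciita overlap between wild type and 5xFAD EGFP.

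The DM genes did not pass between 5xFAD EGFP and wild type. H2-DMa stood at 14.1, 16.7 and 8.99 FPKM in wild type, at 18.1 and 14.5 FPKM in 5xFAD EGFP, at 17.2, 23.7, 24.1 and 19.2 FPKM with circRNA and at 23.8, 19.5, 24.6 and 18.4 FPKM with PKR knockout. Wild type and 5xFAD EGFP overlapped, and the log2 change of 0.31 ± 0.22 (SE) had a 95% confidence interval of -0.17 to 0.80 (limma, adjusted p = 0.42). Against wild type, H2-DMa rose by 0.66 ± 0.19 with circRNA (limma, adjusted p = 0.022) and by 0.69 ± 0.19 with PKR knockout (limma, adjusted p = 0.013).

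H2-DMb1 stood at 18.6, 19.1 and 11.6 FPKM in wild type, at 17.4 and 18.7 FPKM in 5xFAD EGFP, at 19.7, 25.1, 26.6 and 21.6 FPKM with circRNA and at 22.3, 21.7, 23.0 and 20.2 FPKM with PKR knockout. Its log2 change in 5xFAD EGFP against wild type was 0.15 ± 0.18 (SE), with an interval of -0.24 to 0.55 (limma, adjusted p = 0.64). Against wild type it rose by 0.49 ± 0.15 with circRNA (limma, adjusted p = 0.030) and by 0.41 ± 0.15 with PKR knockout (limma, adjusted p = 0.0486). Wild type replicate 3 was the lowest library of all for both DM genes. Without it, the changes in 5xFAD EGFP against wild type were 0.077 for H2-DMa (limma, adjusted p = 0.80) and -0.064 for H2-DMb1 (adjusted p = 0.76). That of H2-DMa with PKR knockout was then 0.46 and still passed (limma, adjusted p = 0.042). The change of H2-DMa with circRNA was 0.42 (limma, adjusted p = 0.075), that of H2-DMb1 with circRNA 0.28 (adjusted p = 0.087) and that of H2-DMb1 with PKR knockout 0.20 (adjusted p = 0.18). The calls with circRNA were also lost without its replicate 2 (H2-DMa adjusted p = 0.058 and H2-DMb1 0.075) and without its replicate 3 (0.059 and 0.077). H2-DMb1 with PKR knockout passed in 4 of the 13 fits that left out 1 library and in 4 of the 10 alternatives. It was lost without any 1 PKR knockout library, without either 5xFAD EGFP library, and without circRNA replicate 2 or 4, with adjusted p of 0.056 to 0.098 in these fits. H2-DMa with PKR knockout passed in all of them.

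Ciita was low in every library. It stood at 0.32, 0.28 and 0.42 FPKM in wild type, at 0.44 and 0.38 FPKM in 5xFAD EGFP, at 0.49, 1.14, 0.95 and 1.10 FPKM with circRNA and at 0.61, 0.67, 1.41 and 0.42 FPKM with PKR knockout. Wild type and 5xFAD EGFP overlapped, with means of 0.34 ± 0.069 FPKM (SD, n = 3) and 0.41 ± 0.039 FPKM (SD, n = 2), while the circRNA libraries were all above both. Because its mean was under 1 FPKM it entered only the fit without a filter, where no comparison passed. There the log2 change was 0.07 ± 0.20 in 5xFAD EGFP against wild type (SE; limma, adjusted p = 0.88), and 0.50 ± 0.17 with circRNA against wild type (limma, adjusted p = 0.060). On the log2(FPKM + 1) scale changes at this level are understated.

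Counted together, 3 of the 6 tested genes rose in 5xFAD EGFP against wild type (Cd74, H2-Aa and H2-Ab1), where 7.65% of all tested genes rose. The split of all calls depends on the scaling. With column sums made equal, 708 genes rose and 3001 fell in this comparison, against 827 and 687 here, and Cd74, H2-Aa and H2-Ab1 passed there too. Without 5xFAD EGFP replicate 1 or without replicate 2, 1 of the 6 passed, which was Cd74 in both fits. Against the same wild type libraries all 6 rose with circRNA, beside 17.8% of all tested genes, and all 6 rose with PKR knockout, beside 17.5%. The count with circRNA was 4 without wild type replicate 3, without circRNA replicate 2 or without circRNA replicate 3. The count with PKR knockout was 5 wherever the call of H2-DMb1 was lost, as without wild type replicate 3 and without PKR knockout replicate 2, the library at 0.0055 FPKM of Ddx3y. Every 5xFAD library lay above every wild type library for 4 of the 6 genes, as it did for 12.7% of all tested genes. These 3 comparisons share the wild type libraries. The median log2 change of the 6 genes was 1.22, 1.73 and 1.66 in 5xFAD EGFP, circRNA and PKR knockout, beside -0.03, 0.02 and -0.05 over all tested genes. In bulk RNA a change in how many cells of a type were sampled and a change in RNA per cell cannot be told apart.

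Against 5xFAD EGFP, no tested gene of the 7 changed with circRNA, where 0% of all 10817 genes were called by limma in either direction and 523 had an unadjusted p under 0.05, none of them among the 6. The log2 change of Cd74 was 0.37 with a 95% interval of -0.30 to 1.04 (limma, adjusted p = 0.74). That of H2-Ab1 was 0.51 with an interval of -0.15 to 1.16, and that of H2-Eb1 0.52 with an interval of -0.27 to 1.30 (limma, adjusted p = 0.74 for both). The 6 estimates were all above 0 with a median of 0.36, beside a median of 0.08 over all tested genes. With 1 library left out, the change ran from 0.23 (without 5xFAD EGFP replicate 2) to 0.55 for Cd74 and from 0.15 (without circRNA replicate 2) to 0.51 for H2-Aa, and none passed. For Cd74, H2-Aa, H2-Ab1 and H2-Eb1 the intervals included both 0 and a rise of 1 log2 unit.

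With PKR knockout against 5xFAD EGFP, 0 of the 6 passed, beside 0.0832% of all tested genes, which is 9 genes. The log2 change was 0.55 for Cd74, with an interval of -0.11 to 1.22 (limma, adjusted p = 0.46), 0.46 for H2-Ab1 with an interval of -0.20 to 1.12 (adjusted p = 0.52) and 0.38 for H2-DMa with an interval of -0.08 to 0.84 (adjusted p = 0.46). With 1 library left out none of the 6 genes passed, and these changes ran from 0.36 to 0.71 for Cd74, from 0.24 to 0.61 for H2-Ab1 and from 0.23 to 0.53 for H2-DMa. The changes of Cd74 and H2-Ab1 were lowest without PKR knockout replicate 3 and highest without replicate 2, and that of H2-DMa was lowest without 5xFAD EGFP replicate 2. Both treatments were set against the same 2 EGFP libraries.

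CircRNA and PKR knockout libraries were compared with each other directly. None of the 6 genes passed, beside 6.19% of all tested genes. The estimates ran from -0.18 for Cd74 (95% interval -0.73 to 0.36, limma, adjusted p = 0.68) to 0.09 for H2-Eb1 (-0.54 to 0.73, adjusted p = 0.87). Their sign depended on the scaling for H2-Ab1, H2-Eb1 and H2-DMb1, so no direction is given.

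**Figure D2:**
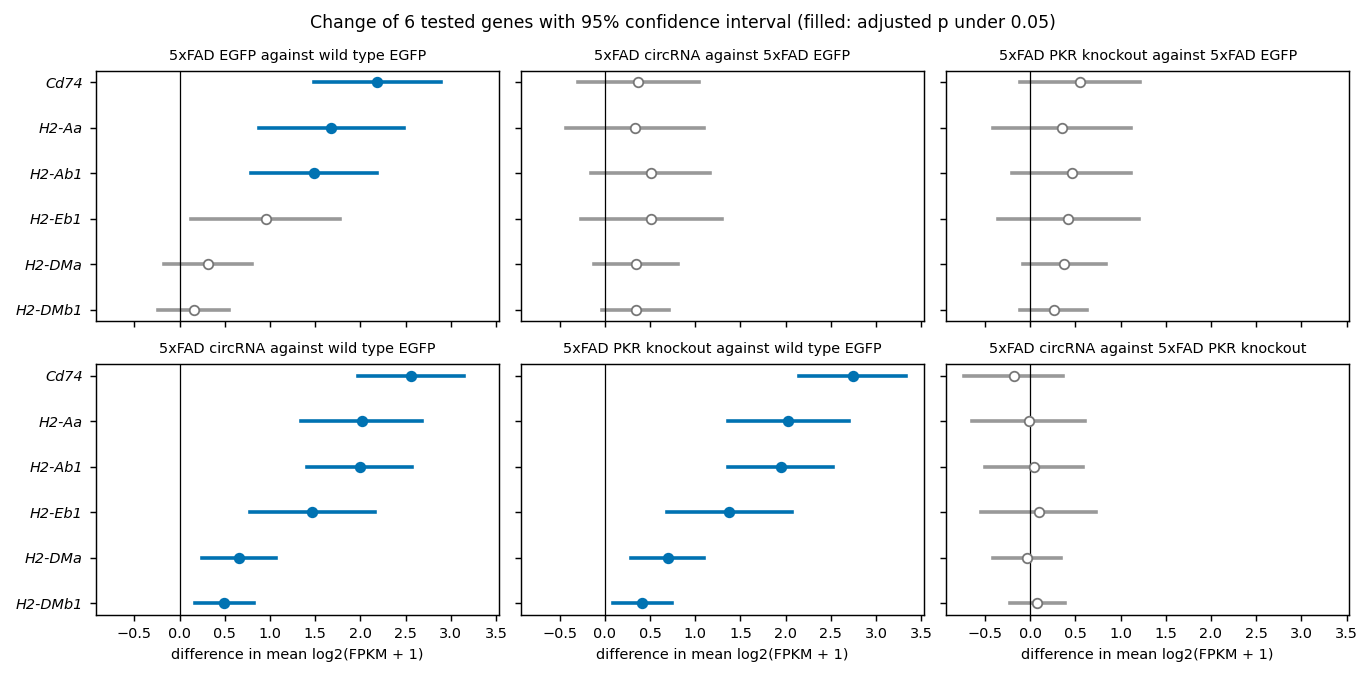
Difference in mean log2(FPKM + 1) of the 6 tested genes in the 6 comparisons, with 95% confidence intervals from limma; filled points had an adjusted p under 0.05. Estimates against wild type fall from Cd74, the highest in each, to H2-DMb1, and every interval in the 3 comparisons among 5xFAD groups includes 0.

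Replicates of the treated groups were far apart for the classical genes. The highest circRNA library exceeded the lowest by 1.93-fold for Cd74, 2.15-fold for H2-Aa, 1.92-fold for H2-Ab1 and 2.13-fold for H2-Eb1. With PKR knockout the same ratios were 2.05, 2.38, 2.17 and 2.54. Residual SDs of log2(FPKM + 1) around the group means were 0.39 for Cd74, 0.46 for H2-Aa, 0.40 for H2-Ab1 and 0.48 for H2-Eb1. The median over all tested genes was 0.13, and between 94.4% and 97.2% of tested genes had a smaller SD than these 4. The residual SD was 0.27 for H2-DMa and 0.21 for H2-DMb1.

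The 4 genes were high and low in the same libraries. CircRNA replicates 2 and 4 lay above their group mean by 0.35 to 0.54 on the log2(FPKM + 1) scale for all 4 of them, and replicates 1 and 3 lay below it. PKR knockout replicate 3 lay above its group mean by 0.57 to 0.76, replicate 1 by 0.03 to 0.14, and replicates 2 and 4 below it. The DM genes did not follow in every library. In circRNA replicate 3, H2-DMa and H2-DMb1 deviated by 0.20 and 0.19 while Cd74 and H2-Aa deviated by -0.26 and -0.46. In circRNA replicate 4, where the classical genes were high, H2-DMa and H2-DMb1 deviated by -0.11 and -0.09. Ciita at 1.14 and 1.10 FPKM was high in circRNA replicates 2 and 4 and, at 1.41 FPKM, in PKR knockout replicate 3, but at 0.95 FPKM it was also high in circRNA replicate 3. The summed border macrophage markers were 30.0 and 17.9 FPKM in circRNA replicates 2 and 4, and 27.6 and 29.4 FPKM in replicates 1 and 3. In PKR knockout they were 23.6, 23.1, 22.8 and 18.0 FPKM in replicates 1 to 4. The summed dendritic cell markers were 7.28, 9.29, 8.68 and 6.27 FPKM in circRNA replicates 1 to 4 and 7.63, 6.55, 8.56 and 5.03 FPKM in PKR knockout replicates 1 to 4. They were thus highest in circRNA replicate 2 and PKR knockout replicate 3, where the classical genes were high, but lowest of their group in circRNA replicate 4, where these were high too. Ccr7, a marker of migrating dendritic cells, was at 0, 0.15, 0 and 0.080 FPKM in circRNA replicates 1 to 4. In PKR knockout it was at 0.061, 0.058, 0.066 and 0 FPKM. These values near 0 were higher in the circRNA libraries with high class II genes. In PKR knockout they were alike in replicate 2, low in these genes, and in replicates 1 and 3. Of the same list, Cd209a, Clec10a, Flt3 and Batf3 were lowest of their group in circRNA replicate 4. Zbtb46 and Itgae lay between there, and Xcr1 was highest, at 0.040 FPKM. The part of either list in the spread was not tested.

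**Figure D3:**
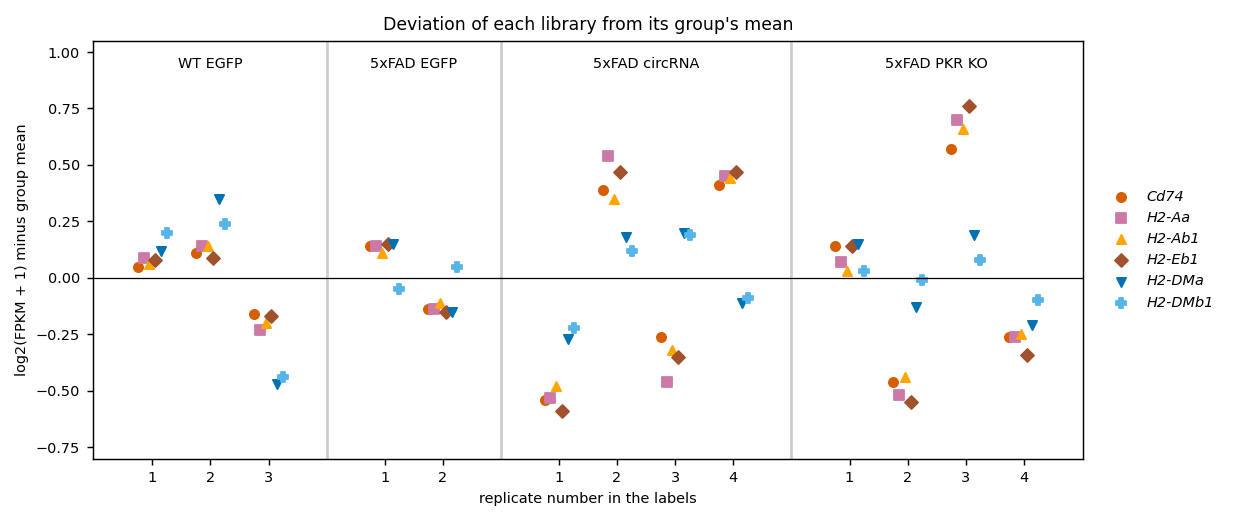
Deviation of log2(FPKM + 1) from the group mean for the 6 tested genes, 1 column of points per library, grouped as in the labels. Cd74, H2-Aa, H2-Ab1 and H2-Eb1 cluster tightly in each library, from about -0.59 in circRNA replicate 1 to 0.76 in PKR knockout replicate 3, while the DM genes depart from them in circRNA replicates 3 and 4.

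Ratios of FPKM between genes within a library do not depend on how the libraries were scaled. H2-Eb1 to H2-Ab1, the beta chains of I-E and I-A, was 1.32, 1.25 and 1.34 in the wild type libraries. In 5xFAD it was 0.91 and 0.85 with EGFP, 0.82, 0.97, 0.87 and 0.91 with circRNA, and 0.93, 0.79, 0.93 and 0.80 with PKR knockout. The 10 5xFAD libraries all lay below the wild type range. The exact two-sided permutation p was 0.0286 for circRNA and for PKR knockout against wild type, the smallest that 4 against 3 libraries can give. Adjusted over the 30 ratio tests it was 0.122. Only 15 of the 30 could reach a p of 0.0286, so the lowest adjusted p that the design allowed was 0.0572, and no ratio test could have passed 0.05 after adjustment. For 5xFAD EGFP against wild type the smallest possible p is 0.10, which it reached.

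The ratio of Cd74 to the mean of H2-Aa and H2-Ab1, the I-A chains it accompanies, was 5.48, 5.46 and 5.89 in wild type, 8.24 and 8.12 in 5xFAD EGFP, 7.51 to 8.52 with circRNA and 8.28 to 9.57 with PKR knockout. Again the wild type libraries lay apart from all 10 others (exact permutation p = 0.0286 for circRNA and for PKR knockout, adjusted p = 0.122). H2-DMa to H2-Aa, the loading chaperone against a classical chain, was 1.5, 1.71 and 1.23 in wild type and 0.36 to 0.87 in the 5xFAD libraries, with the same p for PKR knockout and an exact permutation p of 0.057 for circRNA (adjusted p = 0.19). H2-Aa to H2-Ab1, the chains of 1 dimer, varied least, from 0.72 to 0.76 in wild type and from 0.69 to 0.88 in 5xFAD, a range that includes that of wild type. H2-DMa to H2-DMb1 was 0.76 to 0.87 in wild type and 0.78 to 1.07 in 5xFAD (exact permutation p = 0.0286 for circRNA and for PKR knockout against wild type, adjusted p = 0.122).

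**Figure D4:**
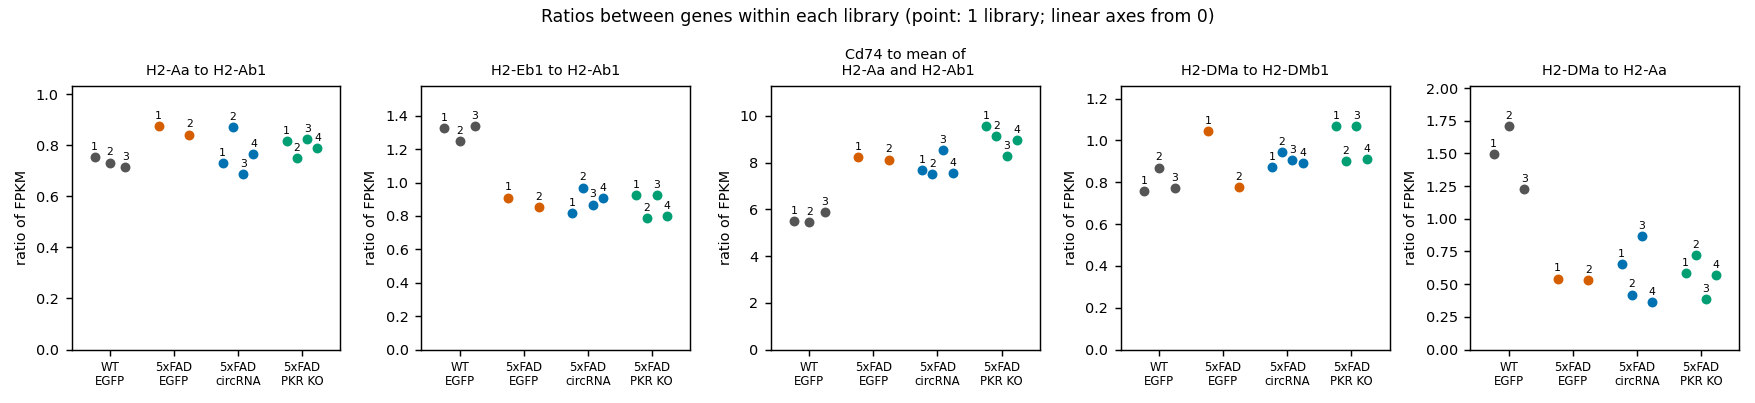
FPKM ratios between genes within each library (linear axes from 0), 1 point per library labelled with its replicate number. H2-Eb1 to H2-Ab1 and H2-DMa to H2-Aa are lower, and Cd74 to the I-A chains higher, in all 10 5xFAD libraries than in the 3 wild type libraries. H2-Aa to H2-Ab1 overlaps wild type with circRNA and with PKR knockout and lies above it in 5xFAD EGFP.

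The order of the levels per length also changed between the groups. In wild type the mean FPKM fell from Cd74 (58.3) to H2-DMb1 (16.5), H2-Eb1 (15.6), H2-DMa (13.3), H2-Ab1 (12.0), H2-Aa (8.84) and Ciita (0.34). Of the neighbours in that order, H2-DMb1, H2-Eb1, H2-DMa and H2-Ab1 differed by less than their spread. In 5xFAD EGFP the order was Cd74 (269.4), H2-Ab1 (35.4), H2-Eb1 (31.3), H2-Aa (30.4), H2-DMb1 (18.0), H2-DMa (16.3) and Ciita (0.41), where H2-Ab1, H2-Eb1 and H2-Aa, and also H2-DMb1 and H2-DMa, differed by less than their spread. The lengths behind these values are the union of annotated exons, which is 3798 bases for H2-Aa and 3448 for H2-DMa but 1944 for H2-Eb1, so the order between genes rests on that annotation.

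Among the other class II genes, 2 of 3 tested rose in 5xFAD EGFP against wild type, beside 7.65% of all tested genes, and both encode chains of DO, the restraint on DM. H2-Oa stood at 7.27, 7.83 and 4.65 FPKM in wild type and at 13.0 and 10.0 FPKM in 5xFAD EGFP, and rose by 0.74 ± 0.18 on the log2 scale (SE; limma, adjusted p = 0.018). H2-Ob rose by 0.46 ± 0.13 (limma, adjusted p = 0.035). Neither passed without 5xFAD EGFP replicate 1 (adjusted p = 0.18 for H2-Oa and 0.25 for H2-Ob). H2-Ob was also lost without 5xFAD EGFP replicate 2 (0.092), wild type replicate 3 (0.055) or PKR knockout replicate 2 (0.0501). With these 2 groups fitted alone neither passed (0.13 for H2-Oa and 0.20 for H2-Ob), and H2-Ob was also lost without a filter (0.054), with equal column sums (0.051) and with a replicate block (0.075). Against wild type with circRNA and with PKR knockout both passed in all 10 alternatives and all 13 fits without 1 library. H2-DMb2, the second DM beta gene, stood at 3.66, 3.89 and 2.04 FPKM in wild type and at 2.02 and 1.87 FPKM in 5xFAD EGFP, and its change of -0.48 ± 0.20 did not pass (limma, adjusted p = 0.14). Reads of H2-DMb1 and H2-DMb2, which are close copies, may be split by the counting. H2-Eb2 was at or near 0 in every library, with a highest value of 0.024 FPKM.

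The factors that bind the class II promoters did not pass. None of the 7 genes of the RFX complex, NF-Y and Creb1 passed in any of the 6 comparisons, and their median log2 change in 5xFAD EGFP against wild type was -0.04, beside -0.03 over all tested genes. Rfxank had the smallest p of these, at -0.23 ± 0.11 (SE; limma, adjusted p = 0.20), followed by Rfx5 at -0.10 ± 0.10 (adjusted p = 0.58), Creb1 at -0.07 ± 0.11 (adjusted p = 0.74) and Nfyc at -0.04 ± 0.09 (adjusted p = 0.85).

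On the interferon gamma route to Ciita, 2 of 8 tested genes rose in 5xFAD EGFP against wild type, beside 7.65% of all tested genes, 0 without 5xFAD EGFP replicate 1 and 1 without its replicate 2. Among them Irf8, a regulator of the macrophage lineage, rose by 0.56 ± 0.15 (SE; limma, adjusted p = 0.026), a call lost without replicate 1 or 2 of 5xFAD EGFP (adjusted p = 0.15 and 0.14), with these groups fitted alone (0.17) and with a replicate block (0.063). The receptor chains Ifngr1 at -0.45 ± 0.20 (adjusted p = 0.16) and Ifngr2 at 0.25 ± 0.13 (adjusted p = 0.27) did not pass. Against wild type 4 of 8 rose with circRNA and 4 of 8 with PKR knockout, beside 17.8% and 17.5% of all tested genes. Between those groups 1 of 8 was lower with circRNA, beside 1.91% of all tested genes. That share depends on the scaling, since 207 of 670 called genes were lower with circRNA here, 697 of 845 with median-ratio scaling, 347 of 511 with quantile normalization and 344 of 683 with equal column sums. That gene, chosen after its values were seen, was Irf1 at -0.42 ± 0.11 (limma, adjusted p = 0.049). It did not pass without a filter on low genes (0.077) or with a replicate block (0.069). Its change was below 0 under every scaling tried, but it passed in only 3 of the 13 fits that left out 1 library, with an adjusted p of up to 0.14 (without PKR knockout replicate 2). Ifng itself was at 0 in the 3 wild type libraries and at no more than 0.13 FPKM in any library.

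Of the proteases that process antigen and the invariant chain, 3 of 6 rose in 5xFAD EGFP against wild type, beside 7.65% of all tested genes, with a median log2 change of 1.07, beside -0.03 over all tested genes. Ctsl stood at 31.2, 30.5 and 18.4 FPKM in wild type and at 87.0 and 83.0 FPKM in 5xFAD EGFP, and rose by 1.67 ± 0.21 (SE; limma, adjusted p = 0.00027). Ctsb rose by 1.56 ± 0.22 (adjusted p = 0.00057) and Ctsd by 1.59 ± 0.26 (adjusted p = 0.0019). The call of Ctsd was lost without a filter on low genes (adjusted p = 0.27) and with these 2 groups fitted alone (0.076), which leaves 2 of the 3 genes named here, while Ctsl and Ctsb passed in all 10 alternatives. Ctss, which encodes the main protease of the invariant chain, changed by 0.58 ± 0.27 and did not pass (limma, adjusted p = 0.19), at 1033, 1148 and 617.6 FPKM in wild type and 1472 and 1235 FPKM in 5xFAD EGFP. Against wild type it rose with circRNA by 0.83 ± 0.22 (adjusted p = 0.016) and with PKR knockout by 1.00 ± 0.22 (adjusted p = 0.0045). With quantile normalization the change of Ctss with circRNA was 0.20 and did not pass (adjusted p = 0.52). Its call with circRNA was also lost without a filter (0.28) and with the groups alone (0.092), and that with PKR knockout was lost without a filter (0.15).

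Among genes of class II turnover and costimulation, 1 of 6 tested rose in 5xFAD EGFP against wild type, beside 7.65% of all tested genes, and none fell. In a list of 6, a single call is not read as a result about the list. The gene that rose was Cd83, whose product stabilises surface class II by opposing the ubiquitin ligase encoded by Marchf1. It stood at 25.1, 27.0 and 17.0 FPKM in wild type and at 72.6 and 63.4 FPKM in 5xFAD EGFP, and rose by 1.54 ± 0.18 (SE; limma, adjusted p = 0.00014). Marchf1 at -0.26 ± 0.18 (adjusted p = 0.38), the costimulatory ligand Cd80 at -0.24 ± 0.12 (adjusted p = 0.24) and Icosl at -0.40 ± 0.13 (adjusted p = 0.060) did not pass. Against the same wild type libraries, 1 of 6 rose and 1 fell with circRNA, where 17.8% of all tested genes rose and 8.05% fell. With PKR knockout 1 rose and 2 fell, where 17.5% rose and 19.4% fell. Icosl, the ligand of ICOS, fell by 0.37 ± 0.11 with circRNA (limma, adjusted p = 0.025) and by 0.46 ± 0.11 with PKR knockout (adjusted p = 0.0063). The first of these calls was lost without circRNA replicate 1 or 3 or wild type replicate 1 or 2 (adjusted p of 0.053 to 0.10) and with the groups fitted alone (0.095), and the second in none of the 13 fits without 1 library. Both were lost with a covariate made from markers of other immune cells (0.92 and 0.90). Cd80 fell by 0.29 ± 0.10 with PKR knockout (adjusted p = 0.036), a call lost in 5 of the 13 such fits, among them that without wild type replicate 2 (0.14), and in 6 of the 10 alternatives. Cd83 was also the 1 gene of the 6 that was lower with circRNA than with PKR knockout, beside 1.91% of all tested genes. It stood at 63.9, 70.4, 71.2 and 56.9 FPKM with circRNA and at 107.5, 113.5, 96.2 and 121.1 FPKM with PKR knockout, without overlap (log2 change -0.73 ± 0.14, limma, adjusted p = 0.015). Without PKR knockout replicate 2 it was -0.71 (limma, adjusted p = 0.0503).

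Other cells of the brain's borders and blood express class II genes at high levels, so their markers were summed in each library. Border macrophage markers (8 genes, among them Mrc1 and Cd163) summed to 44.9 to 70.8 FPKM in wild type and to 22.0 to 31.2 FPKM in 5xFAD EGFP, 17.9 to 30.0 FPKM with circRNA and 18.0 to 23.6 FPKM with PKR knockout. Of 7 tested, 6 fell and none rose in 5xFAD EGFP against wild type, where 6.35% of all tested genes fell. With these groups fitted alone, Cbr2 (limma, adjusted p = 0.056), Cd163 (0.068), F13a1 (0.066), Lyve1 (0.12) and Pf4 (0.064) lost their calls. The dendritic cell marker Cd209a lost its call there too (0.076). Mrc1, the mannose receptor, fell by 1.07 ± 0.20 (SE; limma, adjusted p = 0.0044). Dendritic cell markers (8 genes) summed to 11.1 to 17.7 FPKM in wild type and to 5.03 to 9.29 FPKM over the 10 5xFAD libraries, and 2 of 3 tested fell in 5xFAD EGFP against wild type, Cd209a and Clec10a. Without 5xFAD EGFP replicate 2, 0 of the 7 border macrophage markers and 0 of the 3 dendritic cell markers passed, and without any other library 4 to 6 and 1 to 2 did. Against wild type 6 of 7 and 2 of 3 fell with circRNA, beside 8.05% of all tested genes, and also with PKR knockout, beside 19.4%. The dendritic cell markers Flt3, Xcr1 and Ccr7 were at or below 0.23 FPKM in every library, and Zbtb46 stood at 0.49 to 1.41 FPKM. Both sums were thus lower in the 10 5xFAD libraries than in wild type, whereas Cd74, H2-Aa, H2-Ab1 and H2-Eb1 were higher. The part of these cells in the class II values was not tested.

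Most markers of B cells, T cells and monocytes were under 1 FPKM in every library, with Cd79b and Ace as the exceptions. Ms4a1, Cd79a and Pax5 were at or below 0.12 FPKM in every library, and the B cell sum of 1.5 to 3.97 FPKM came mostly from Cd79b, at 1.41 to 3.86 FPKM. T cell markers (5 genes) summed to 0.34 to 0.90 FPKM, mostly from Cd4 at 0.21 to 0.80 FPKM. Cd3e, a chain of the T cell receptor complex, stood at 0.010, 0.0051 and 0.015 FPKM in wild type and at 0.023 to 0.11 FPKM in 5xFAD. Cd3e was thus above every wild type library in all 10 5xFAD libraries, at values near 0, as were 12.7% of all tested genes. The other T cell markers, Cd3d, Cd3g, Cd4 and Cd8a, each overlapped between wild type and 5xFAD. The part of T cells in the difference of the class II genes was not tested. Of the monocyte markers, Ccr2, Ly6c2, Plac8 and Chil3 were each under 1 FPKM in every library, and the list summed to 8.51 to 17.3 FPKM in wild type and 4.28 to 14.3 FPKM in 5xFAD. Most of that sum came from Ace, which encodes angiotensin-converting enzyme. Ace stood at 15.9, 10.9 and 7.35 FPKM in wild type and at 5.66 and 4.82 FPKM in 5xFAD EGFP, and reached 13.6 FPKM in circRNA replicate 4. Among the 8 microglial markers 1 fell in 5xFAD EGFP against wild type, beside 6.35% of all tested genes. It was Tmem119, by 1.07 ± 0.28 (limma, adjusted p = 0.023), and this single call is not read as a result about the list. None of the 8 passed without either 5xFAD EGFP library or without wild type replicate 1 or 2, and 3 fell without wild type replicate 3. Oligodendrocyte markers (4 genes) summed to 246 to 1090 FPKM in wild type, 448 to 485 FPKM in 5xFAD EGFP, 203 to 538 FPKM with circRNA and 151 to 246 FPKM with PKR knockout. None of them passed between 5xFAD EGFP and wild type, whereas 2 rose without wild type replicate 3. In that fit 969 of all 10817 tested genes rose and 1029 fell. Astrocyte markers (4 genes) summed to 57.4 to 202 FPKM in wild type to 110 to 160 FPKM in 5xFAD EGFP, 102 to 184 FPKM with circRNA and 118 to 182 FPKM with PKR knockout, and 1 rose in 5xFAD EGFP against wild type (0 without 5xFAD EGFP replicate 1). Endothelial and mural markers (5 genes) summed to 55.8 to 127 FPKM in wild type to 24.5 to 35.2 FPKM in 5xFAD EGFP, 32.8 to 63.5 FPKM with circRNA and 34.1 to 51.4 FPKM with PKR knockout, and 4 fell in 5xFAD EGFP against wild type (1 without 5xFAD EGFP replicate 2). Beside these counts in 5xFAD EGFP against wild type, 7.65% of all tested genes rose and 6.35% fell. The single astrocyte call is not read as a result about that list. Neuronal markers (5 genes) summed to no more than 13.2 FPKM in any library. With a covariate made from 12 tested markers of border macrophages, dendritic cells, B cells and monocytes in the fit, the log2 change of H2-DMa in 5xFAD EGFP against wild type was 1.14 and that of H2-DMb1 0.75 (limma, adjusted p = 0.0038 and 0.024), so that 5 of the 6 genes passed. The covariate itself does not overlap between the genotypes, at 1.62, 1.69 and 0.46 in wild type replicates 1 to 3 and at -1.08 to 0.09 in the 10 5xFAD libraries. These adjusted changes are therefore extrapolated between the genotypes, and wild type replicate 3, which stood apart, is the wild type library nearest to 5xFAD in the covariate.

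**Figure D5:**
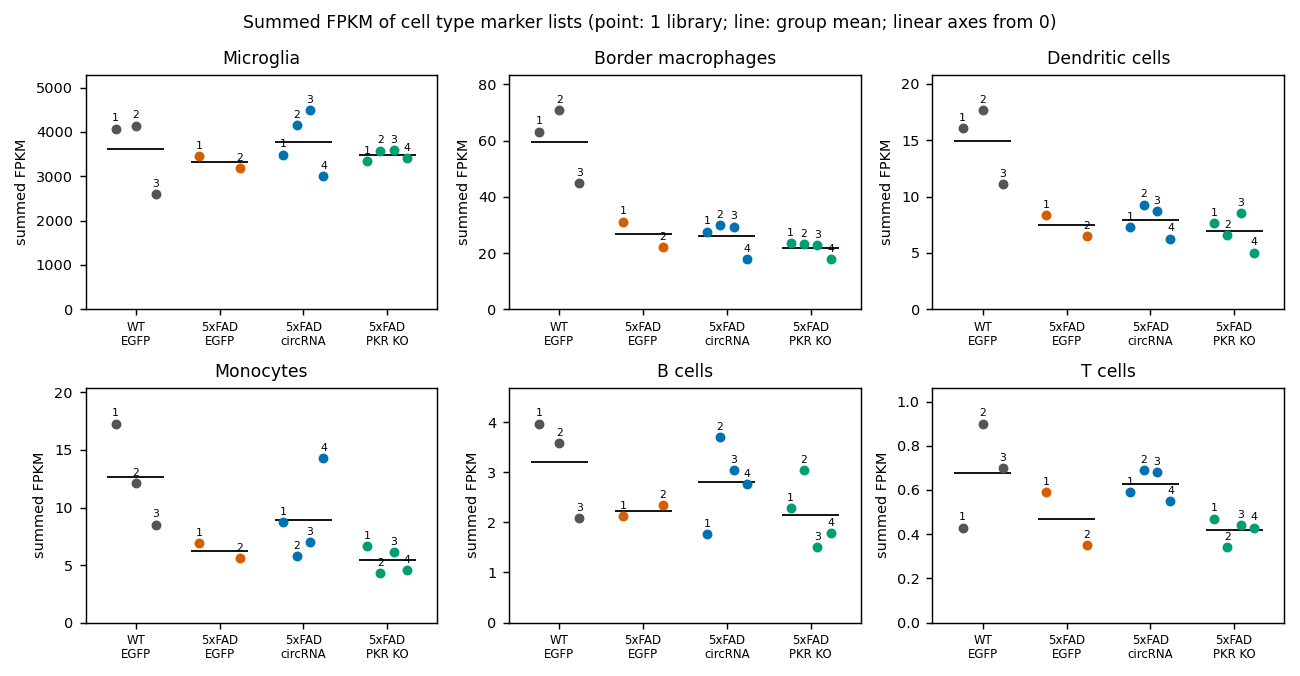
Summed FPKM of marker lists of 6 cell types (linear axes from 0), 1 point per library labelled with its replicate number and a line at each group's mean. Border macrophage and dendritic cell sums are higher in the 3 wild type libraries (44.9 to 70.8 and 11.1 to 17.7 FPKM) than in the 10 5xFAD libraries, and B cell and T cell sums stay below 4 and 1 FPKM.

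The genes whose pattern was most like that of the class II genes were found by Pearson's r of log2(FPKM + 1) with the mean standardised profile of the 6 tested genes over the 13 libraries. They were Sdf2l1 (r = 0.941), a chaperone cofactor of the endoplasmic reticulum, H2-Oa (0.934), the class I genes H2-M3 (0.932) and H2-K1 (0.929), and Herc6 (0.925), an interferon-induced ligase. H2-K1 stood at 37.1 to 46.5 FPKM in wild type and at 96.1 to 146.3 FPKM in 5xFAD. The 6 genes themselves had r of 0.842 (H2-DMb1) to 0.977 (H2-Ab1) with their mean. All these r include the gap between wild type and 5xFAD libraries, and they are a description.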

How the data were processed

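The authors deposited 1 table of FPKM values with a column for each of the 13 libraries, not pooled. HISAT2 2.1.0, Bowtie2 2.3.5, featureCounts 1.5.1 and mm10 are named in the submitters' processing notes, with no role or order. The annotation and the strand setting of the counting are not given in the sources used here. The values recover whole fragments (within 0.02) for 90.6% to 92.9% of low values, against 4% by chance, with union exon lengths of GENCODE M21 (GRCm38), which covered 98.3% of genes. Tests used limma 3.58.1 (R 4.3.3). Values entered as log2(FPKM + 1), genes were kept from a mean of 1 FPKM upward, and all 13 libraries formed 1 model with a mean per group, eBayes with a trend, and Benjamini-Hochberg adjustment within each comparison, called at 0.05. Ratios were tested by exact permutation. The alternatives were 10 other fits and leaving out each library. The genes and lists were chosen with earlier results of these data known. Genes named from a list had its smallest p in 5xFAD EGFP against wild type, at most 4 per list. Counting error covers neither dissection nor library making. Some genes of the lists are counted but not reported here by name.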

Additional observations from a re-analysis of the deposited data

Results flagged for a closer look

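In circRNA replicate 3 the FPKM ratio of Cd74 to the mean of H2-Aa and H2-Ab1 was 8.52, against 7.68, 7.51 and 7.55 in replicates 1, 2 and 4. The gap to the nearest of the others was 0.833 of the group's whole range, past Dixon's critical value for 4 values at the level of 95%. On the log2 scale the same gap was 0.823 of the range and did not pass. The test was run for the 7 genes and the 5 ratios in the groups of 4 libraries, 24 sets of values on each scale, and this was the only gap that passed. Chance alone gives about 1 such gap in 20 sets. Genes other than the 7 were not tested in this way.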

How the results depend on the processing

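Cd74, H2-Aa, H2-Ab1 and H2-Eb1 passed against wild type with circRNA and with PKR knockout in all 10 alternatives and all 13 fits without 1 library. In 5xFAD EGFP against wild type the number passing was 3, 4 with the 2 groups alone (H2-Eb1 in addition, limma, adjusted p = 0.031), 5 with the marker covariate, and 1 to 3 with a library left out. In PKR knockout against 5xFAD EGFP it was 0, and 1 with the marker covariate (H2-DMa, 0.49, limma, adjusted p = 0.037). Whether the replicate numbers pair the libraries is not settled. Correlations of same-numbered deviations ran from -0.42 to 0.69, and those of replicate 2 were above 0 in all 6 comparisons, at 0.17 to 0.69. With the replicate block, 3, 0, 0, 6, 5 and 0 of the 6 genes passed in the 6 comparisons, and the call lost was H2-DMb1 with PKR knockout against wild type (0.45, adjusted p = 0.057).

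Other calls of the DM genes against wild type were lost as follows, and the cause was not tested. H2-DMb1 with PKR knockout had an adjusted p of 0.062 without a filter, 0.27 with column sums made equal, 0.13 with quantile normalization, 0.087 with the 2 groups alone and 0.099 with array weights. H2-DMb1 with circRNA had 0.23, 0.079, 0.11 and 0.20 in the last 4 of these. H2-DMa with circRNA had 0.095 with equal sums, 0.068 with the groups alone and 0.18 with array weights. Equal sums moved the median of all genes against wild type to between -0.17 and -0.24.

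Among the class II genes tested, signs turned only in changes that did not pass. Of the other listed genes with a call, 2 turned, both with the marker covariate, which is built from Pf4 among others: Pf4 in 5xFAD EGFP against wild type (-1.02 to 0.12) and Tmem119 with PKR knockout against wild type (-0.78 to 0.30). For circRNA against PKR knockout, median-ratio scaling gave -0.083 for H2-Ab1, -0.033 for H2-Eb1 and -0.043 for H2-DMb1. Equal sums gave -0.013 for H2-Ab1. Array weights gave -0.11, -0.11 and -0.046 for these 3 genes, and the marker covariate -0.014 for H2-Ab1 and -0.043 for H2-DMb1. H2-DMb1 in 5xFAD EGFP against wild type was -0.010 with equal sums and -0.0064 with array weights. Leaving out 1 library, it ran from -0.064 to 0.27. In circRNA against PKR knockout, Cd74 ran from -0.34 to 0.0081, H2-Aa from -0.20 to 0.22, H2-Ab1 from -0.10 to 0.26, H2-Eb1 from -0.092 to 0.35 and H2-DMa from -0.11 to 0.051. Log2 ratio differences that turned ran from -0.013 to 0.10 for H2-Aa to H2-Ab1 (circRNA against wild type). H2-Eb1 to H2-Ab1 ran from -0.034 to 0.057 (circRNA) and -0.085 to 0.0054 (PKR knockout) against EGFP. H2-DMa to H2-DMb1 ran from -0.042 to 0.39 (5xFAD EGFP against wild type), -0.21 to 0.22 (circRNA against EGFP) and -0.087 to 0.34 (PKR knockout against EGFP). H2-DMa to H2-Aa ran from -0.21 to 0.21 (circRNA) and -0.092 to 0.21 (PKR knockout) against EGFP, and -0.25 to 0.17 between the treated groups.

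Over the alternatives, the number of all genes called was 509 to 3709 (1514 in the reported fit) in 5xFAD EGFP against wild type, 1725 to 5676 (2796) with circRNA and 3104 to 6595 (3997) with PKR knockout against wild type, 0 to 822 (9) for PKR knockout against EGFP and 147 to 3161 (670) for circRNA against PKR knockout. With equal sums 995 of 5676 called genes were higher with circRNA and 1174 of 6595 with PKR knockout than in wild type, against 1925 of 2796 and 1898 of 3997 in the reported fit. Quantile normalization gave 1619 of 3163 with circRNA, and median-ratio scaling 2757 of 4204 with PKR knockout.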

Other observations

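Among deviations from the group means, the genes most like the 6 tested class II genes over the 13 libraries were Rbbp5 (r = 0.881), Arhgap39 (0.88), Pomgnt2 (0.873), Mettl2 (0.864) and Idnk (0.851). Rbbp5 stood at 6.15, 6.71, 6.62 and 6.84 FPKM in circRNA replicates 1 to 4 and at 6.03, 5.72, 6.49 and 5.60 FPKM in PKR knockout. None of the 5 is a class II gene, and H2-Oa, most like over all libraries among class II genes outside the 7, was not among them.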
